A study of Mus musculus with 4 samples.

Results

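Heat shock proteins and co-chaperones were measured in type 2 conventional dendritic cells (cDC2) of the mouse spleen that either were wild-type (WT) or lacked the transcriptional regulator Id2 (Id2 KO). The members were the genes whose symbol begins with Hsp (without Hspg2), with Dnaja, Dnajb or Dnajc, or with Cct followed by a digit from 2 to 8, together with Bag1 to Bag6, Hsf1, Hsf2, Tcp1, Stip1 and Ahsa1. Only probe sets that the platform annotation gives a single symbol were taken, and the brightest stood for a gene that had several. The rule found 91 genes, on 114 probe sets, among the 19938 genes with such a probe set. Hsf1, Hspa1b and Hsp90ab1 had no probe set of their own under this rule and are not analysed here. Each group held 2 samples on 1 array each. The WT cDC2 came from Zbtb46-GFP chimeric mice, and the others from chimeras of that kind that carried the Id2 KO. In both groups Zbtb46-GFP is a fluorescent reporter of a transcription factor of conventional dendritic cells, and no treatment was named for either. The deleted part of Id2, the cells the hosts still had, the mice behind each sample and their age were not given in the sources used here. P-values therefore rest on how far these samples lie apart, and that spread may be a technical one. The labels place the cells in the spleen, while the design text of the study also names bone marrow.

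Chaperones bind unfolded or partly folded proteins and help them to reach, keep or regain their shape. HSP70 proteins do so in cycles of ATP binding and release that J proteins (the Dnaj genes) start and exchange factors such as the BAG proteins end, and HSP90 receives many of their clients through the adaptor Stip1. The ring-shaped chaperonin CCT folds actin and tubulin in the cytosol, and Hspd1 with its lid Hspe1 does the same for proteins of mitochondria. Some of these genes are on at a steady level in most cells. Others are switched on by heat and other stress through heat shock factors that bind heat shock elements in DNA, or, for the chaperones of the endoplasmic reticulum (ER), through the unfolded protein response and its ER stress elements. By what is known of them, 11 members were classed as heat-inducible, 6 as ER stress-inducible, 57 as constitutive and 16 as restricted to tissues such as testis or muscle, and Hsf2, a heat shock factor, stood alone.

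The labels and the arrays were checked first. Id2 had log2 intensities of 9.14 and 9.08 on WT arrays against 8.71 and 8.97 on the others, a difference of -0.27 that did not pass the test (adjusted p = 0.172), and where its probe set lies relative to the deletion is unknown, so every direction here rests on the labels. Median intensities lay between 128 and 134. Xist, the X-inactivation RNA, had a log2 intensity of 11.96 on each WT array against 6.67 and 6.68 on the Id2 KO arrays. Kdm5d, a gene of the Y chromosome, read 5.72 and 5.53 on the WT arrays against 8.08 and 8.50 on the Id2 KO arrays. The groups thus differed in sex-linked expression, and genotype and sex cannot be told apart here for any gene. Of 5 markers of type 1 dendritic cells, 3 lay below the intensity filter, which acts on the mean over all arrays. The other 2 lay above it. Batf3 read 10.67 on each WT array against 10.66 and 10.79 on the Id2 KO arrays, and Tlr3 differed by -0.73 (adjusted p = 0.00103). All 8 listed cDC2 markers lay above the filter. Zbtb46 did so only through WT, since it read 6.49 and 6.59 on the Id2 KO arrays, below the filter level of 6.77. Of these 8, Itgam was lower by 1.00 and Zbtb46 by 1.02 on the log2 scale in the Id2 KO arrays (adjusted p = 0.00479 and 1.35e-04). The other 6 did not pass, with differences from -0.23 (Sirpa) to 0.11 (Flt3). For scale with the counts that follow, 2.52% of all tested genes were lower in Id2 KO and 5.53% were higher. The 10 neutrophil markers summed to intensities of 17540 and 18164 in WT against 1370 and 2293 in Id2 KO, with all 10 lower. Among them, Mmp8 (5.53 and 5.44) and Mpo (6.51 and 6.53) had Id2 KO means below the filter level and were tested only through WT. The 7 B cell markers measured (1001 and 999 in WT against 2138 and 2494) and the 10 cell cycle genes (4380 and 4523 against 12014 and 9292) were all higher. Of the B cell markers, Cr2 (6.19 and 6.32) and Fcer2a (6.53 and 6.92) had WT means below the filter level and were tested only through Id2 KO. Of the 4 macrophage markers 2 were lower (sums of 2274 and 2375 in WT against 1812 and 1856), as were 1 of 2 erythroid markers (423 on each WT array against 260 and 284) and 1 of 3 T cell markers (633 and 647 against 566 and 579). Their part in the results below was not tested, and in such bulk samples fewer cells of a type and less RNA per cell cannot be told apart.

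Of the 9 heat-inducible chaperone genes tested, 5 fell in the Id2 KO arrays and the other 4 had differences below 0 that did not pass. Of the 54 tested constitutive genes, 1 rose and none fell. Within 0.3 of 0 on the log2 scale lay 3 of the 9 heat-inducible and 52 of the 54 constitutive genes. The share of all tested genes within that range was not computed, the range is not part of the test, and the classes were drawn with earlier results of these data known. The test took genes whose mean lay above the 40th percentile of all genes (log2 6.77), which kept 75 of the 91 members. Of these, 6 fell and 3 rose, whereas 2.52% of all 11963 tested genes fell, 5.53% rose and 8.04% changed in either direction. Of the 6 that fell, 5 were heat-inducible (Hspa1a, Dnajb1, Dnajb4, Dnaja1 and Bag3) and 1 was the testis gene Hspa1l. All 3 that rose came from other classes, namely the small heat shock protein gene Hspb6, the J protein gene Dnajc9 and Hsf2. The WT mean of Hsf2 lay below the filter, so it was tested only through the group where it was higher, and the calls of Hsf2 and Hspa1l were lost under several other settings. The median log2 difference (Id2 KO minus WT) was -0.44 over the 9 tested heat-inducible genes and -0.42 over all 11, against 0.06 over the 54 tested constitutive genes, 0.08 over the 6 ER stress-inducible genes and 0.01 over all tested genes.

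**Figure D1:**
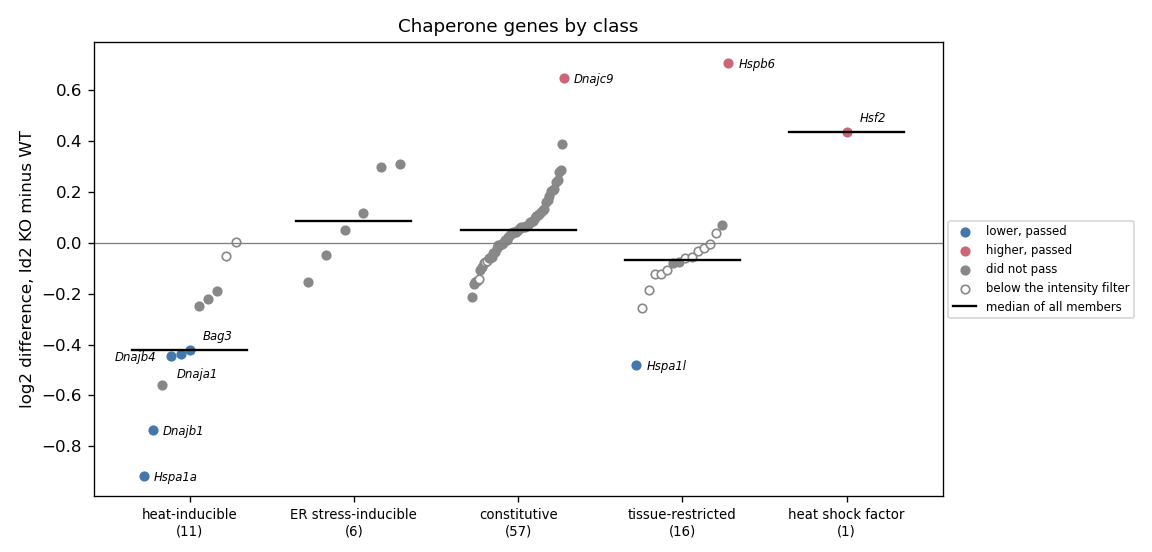
The log2 difference of each of the 91 member genes (Id2 KO minus WT, 2 arrays per group) is plotted by class, with the number of members in brackets, open circles for genes below the intensity filter and a line at the median of all members of a class. The 5 heat-inducible genes that passed lie between -0.42 and -0.92, and 1 of the 54 tested constitutive genes passed, Dnajc9 at 0.65.

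Among the HSP70 genes, Hspa1a, which encodes the classical heat-inducible HSP70, had the largest difference of all members. On the WT arrays it read 11.94 and 12.04 on the log2 scale, against 10.93 and 11.21 on the Id2 KO arrays. The groups stood well apart. The mean fell by 0.92 (95% interval -1.15 to -0.68, SE 0.10, n = 2 per group), which is 1.89-fold lower (adjusted p = 8.03e-04). Hspa1a and its near-identical neighbour Hspa1b cannot be separated with certainty by probes, and a probe set annotated to both read 12.12 and 12.16 in WT against 11.19 and 11.37 in Id2 KO, a difference of -0.86. Hsph1 encodes HSP110, a heat-inducible relative of HSP70 that helps it to exchange nucleotide. It read 11.17 and 11.41 in WT against 10.99 and 10.47 in Id2 KO. Both Id2 KO arrays lay below both WT arrays, but they differed from each other by 0.52, and the difference of -0.56 did not pass (adjusted p = 0.067). With Id2 KO replicate 1 left out it was -0.82 and passed (adjusted p = 0.00179), with replicate 2 left out it was -0.30, and it also passed with each array centred on its median (adjusted p = 0.0443).

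All 3 J protein genes of the heat-inducible class fell. Dnajb1, the classical HSP40, read 10.59 and 10.64 in WT against 9.91 and 9.84 in Id2 KO. Replicates agreed within 0.07 in each group. The mean fell by 0.74 (-0.92 to -0.55), or 1.67-fold (adjusted p = 6.50e-04). Dnajb4, a close relative of Dnajb1, read 8.86 and 8.93 in WT against 8.42 and 8.47 in Id2 KO and fell by 0.45 (adjusted p = 0.00969). Dnaja1, which serves HSP70 in the cytosol and in protein import into mitochondria, read 11.51 and 11.41 in WT against 11.07 and 10.98 in Id2 KO and fell by 0.44 (adjusted p = 0.0137). The groups did not overlap in either gene. Another Dnaja1 probe set differed by -0.54, while one annotated to both Dnaja1 and the microRNA gene Mir207 differed by -0.02. With WT replicate 1 left out, the calls of Dnajb4 (adjusted p = 0.052) and Dnaja1 (0.127) were lost, and that of Dnajb4 was also lost without WT replicate 2 (0.0772).

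Bag3, a co-chaperone that links HSP70 to small heat shock proteins and to autophagy, read 7.79 in both WT arrays and 7.41 and 7.31 in the Id2 KO arrays. It fell by 0.42 (-0.61 to -0.24, adjusted p = 0.0138), a call lost without WT replicate 1 (adjusted p = 0.0962) or 2 (0.0778). Hsp90aa1, the inducible cytosolic HSP90, read 12.43 and 12.56 in WT against 12.31 and 12.18 in Id2 KO. Its difference of -0.25 (-0.45 to -0.05) did not pass (adjusted p = 0.148), and its other 2 probe sets gave -0.25 and -0.23. Neither gene of the mitochondrial pair passed. Hspd1 read 8.89 and 8.96 in WT against 8.78 and 8.68 in Id2 KO (-0.19, adjusted p = 0.237), and Hspe1 read 11.45 and 11.22 in WT against 11.25 and 10.99 in Id2 KO (-0.22, adjusted p = 0.324), the single tested gene of this class whose groups overlapped. The other probe set of each gave -0.22 for Hspd1 and -0.28 for Hspe1. For the other 8 both Id2 KO arrays lay below both WT arrays, an order found in 22.8% of all tested genes. The small heat shock protein genes Hspb1 (-0.05) and Hspb8 (0.01) lay below the filter, with readings between 6.29 and 6.78, and were not tested.

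**Figure D2:**
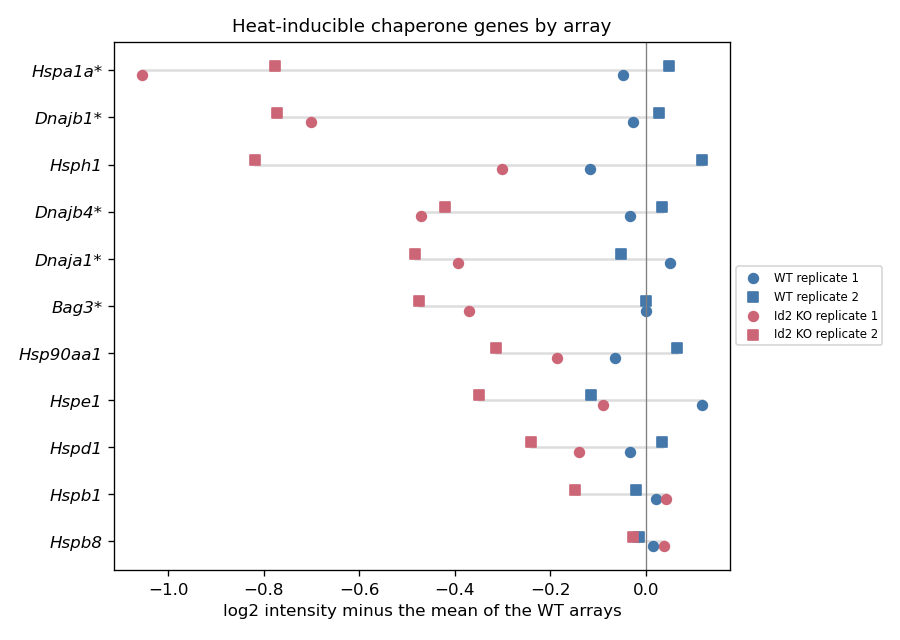
The log2 intensity of the 11 heat-inducible member genes is shown for each of the 4 arrays as the distance from the mean of the WT arrays, with circles for replicate 1, squares for replicate 2, blue for WT, red for Id2 KO and an asterisk for genes that passed the test. Both Id2 KO arrays lie to the left of both WT arrays for 8 genes, and those of Hsph1 are 0.52 apart.

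Immediate early genes respond within minutes to stimuli that include tissue handling. Of 13 tested, 3 fell and none rose, with a median of -0.21 and 12 below 0. Of all tested genes, 2.52% fell, 5.53% rose and 47.9% lay below 0. Those that fell were Atf3 (-0.39, adjusted p = 0.028), Jun (-0.36, adjusted p = 0.033) and Fosb (-0.35, adjusted p = 0.03). Fosb read 13.01 and 13.08 in WT against 12.72 and 12.67 in Id2 KO. Jund differed by -0.29 (adjusted p = 0.066), Ier2 by -0.25 (adjusted p = 0.218), Fos by -0.21 (adjusted p = 0.183) and Egr1 by -0.01 (adjusted p = 0.983). The summed intensity of the 13 genes was 67874 and 70747 in WT against 61137 and 60655 in Id2 KO. Their part in the fall of the 5 heat-inducible genes that passed, and that of the neutrophil, B cell and cell cycle genes, was not tested.

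The stretches before the start of heat-inducible genes are shown because heat shock elements are what genes of this class are known for. A heat shock element is built of GAA units in alternating orientation, and its pair was searched as GAANNTTC or TTCNNGAA, which each read the same on both strands, in windows from 250 bases before to 50 after an annotated start (RefSeq, build GRCm38.p6). Of the 91 members, 76 had at least 1 window. A pair was present near 9 of the 10 heat-inducible genes with a window, near 6 of 45 constitutive genes and near 17% of the 27025 genes in the table (15.1% of 32851 windows). The class was drawn by known heat induction, so a high share in it was likely beforehand. Any link of pairs to the fall was not tested. The 250 bases before the start follow, 5′ to 3′ on the strand of the gene, with the pair in capitals. Where a gene had several windows, the one with the most matched bases is shown. Those of Hspa1a (chr17:34972157-34972406, minus strand), Dnajb4 (chr3:152193846-152194095, minus strand) and Dnaja1 (chr4:40722218-40722467, plus strand) each hold 1 pair, beginning 104, 14 and 124 bases before the start. A pair lay in only 1 of the 2 windows of Dnajb4 and in only 1 of the 3 windows of Dnaja1. Dnajb1 (chr8:83607925-83608174, plus strand) holds none of these letters in either of its 2 windows, although it fell. Hspe1 (chr1:55087898-55088147, plus strand) holds 3 overlapping pairs that begin 89, 84 and 79 bases before the start; a window of Hspd1 on the other strand covers this stretch, and all of its matches are the same letters, so the 2 genes share 1 site that is counted for each.
Hspa1a: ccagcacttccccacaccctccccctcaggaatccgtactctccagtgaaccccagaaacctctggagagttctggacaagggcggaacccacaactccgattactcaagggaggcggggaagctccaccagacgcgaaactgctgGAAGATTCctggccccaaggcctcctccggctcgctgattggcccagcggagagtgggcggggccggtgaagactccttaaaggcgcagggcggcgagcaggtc
Dnajb4: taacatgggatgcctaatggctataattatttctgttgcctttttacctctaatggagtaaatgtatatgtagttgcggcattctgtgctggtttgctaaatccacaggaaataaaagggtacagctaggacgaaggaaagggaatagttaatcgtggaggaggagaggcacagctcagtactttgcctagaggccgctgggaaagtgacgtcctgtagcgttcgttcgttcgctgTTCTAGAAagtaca
Dnaja1: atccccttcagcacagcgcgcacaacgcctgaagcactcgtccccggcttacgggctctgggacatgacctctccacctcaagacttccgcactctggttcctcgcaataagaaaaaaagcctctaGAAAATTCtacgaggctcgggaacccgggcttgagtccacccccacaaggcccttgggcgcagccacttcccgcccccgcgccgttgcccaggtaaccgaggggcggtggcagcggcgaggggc
Dnajb1: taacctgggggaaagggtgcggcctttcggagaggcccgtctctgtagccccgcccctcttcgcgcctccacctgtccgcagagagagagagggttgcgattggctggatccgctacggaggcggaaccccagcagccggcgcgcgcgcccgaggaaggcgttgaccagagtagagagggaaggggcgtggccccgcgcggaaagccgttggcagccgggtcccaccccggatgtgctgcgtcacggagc
Hspe1: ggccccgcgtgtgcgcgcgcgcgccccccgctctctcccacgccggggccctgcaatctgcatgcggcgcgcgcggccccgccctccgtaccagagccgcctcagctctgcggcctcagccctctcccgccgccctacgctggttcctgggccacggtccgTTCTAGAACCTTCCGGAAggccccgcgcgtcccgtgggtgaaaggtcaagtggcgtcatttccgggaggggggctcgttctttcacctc

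The other matches of the heat-inducible class lay 42 bases after the start in Bag3, 2 after it in Hspb8, 117 and 97 before it in Hspb1, and on both sides of it in Hsph1. Runs of 3 alternating units, each 2 bases from the next, which the pair search also counts, were found near Hspd1 and Hspe1 (the same letters), Hsph1 and the constitutive gene Dnajb6 and near 0.662% of all genes with a window. None of the 3 heat-inducible genes with such a run passed the test, and Dnajb6 differed by 0.07. Of the 6 genes that fell, 4 had a pair, and so did Hspb6, which rose. Every heat-inducible gene with a window that did not pass or was not tested had a pair too. A match is a description of letters in a window and not a bound site.

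**Figure D3:**
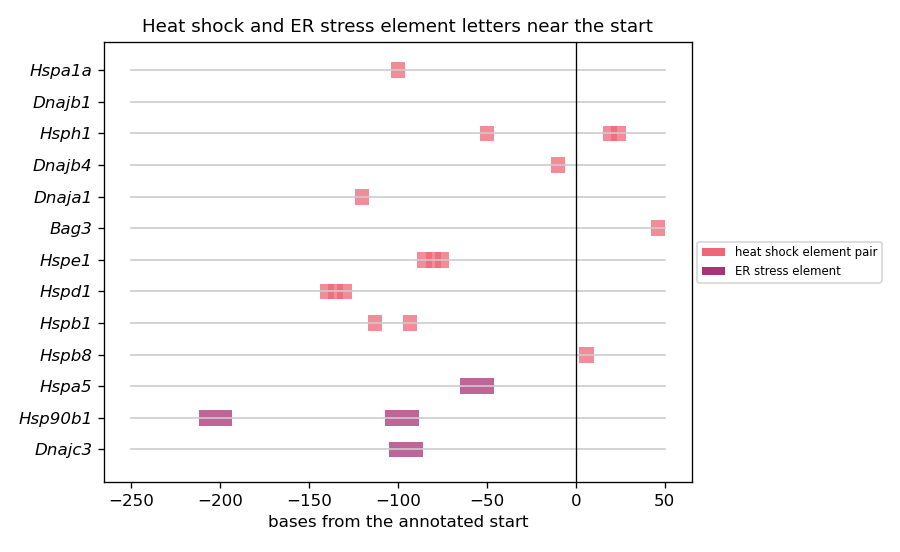
Bars mark where the letters of a heat shock element pair or of an ER stress element lie in the window from 250 bases before to 50 after the annotated start, for the 10 heat-inducible genes with a window (in order of their difference, lowest first) and 3 ER stress-inducible genes; 1 window per gene is drawn. Each heat-inducible gene but Dnajb1 has at least 1 bar, and Hspa5, Hsp90b1 and Dnajc3 have the ER stress element.

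None of the 6 ER stress-inducible chaperone genes passed, and their differences lay between -0.16 and 0.31. Hspa5 (BiP), the HSP70 of the ER and a standard readout of ER stress, read 11.27 and 11.28 in WT against 11.31 and 11.15 in Id2 KO, a difference of -0.05 with an interval from -0.24 to 0.15 (adjusted p = 0.819). The groups overlapped. Hsp90b1 (GRP94), the HSP90 of the ER and a chaperone of Toll-like receptors and integrins, read 11 and 11.16 in WT against 11.50 and 11.25 in Id2 KO. Its 0.30 did not pass (adjusted p = 0.139), though it did without Id2 KO replicate 2 (0.43, adjusted p = 0.034), and without Id2 KO replicate 1 it was 0.17 (adjusted p = 0.52). The J proteins of the ER stress-inducible class were Dnajc10, a disulfide reductase (0.31, adjusted p = 0.0685), Dnajb9 (0.12), Dnajb11 (0.05) and Dnajc3, an inhibitor of the kinase PERK (-0.16). The ER stress element, searched on both strands as CCAAT and CCACG with 9 bases of any kind between them, was present near 3 of the 6 (Hspa5, Hsp90b1 and Dnajc3) and near 0.137% of all genes with a window. The 250 bases before the start of Hspa5 (chr2:34771840-34772089, plus strand) are shown with the element in capitals, beginning 65 bases before the start, as the counterpart of the heat shock element in a gene that did not pass.
Hspa5: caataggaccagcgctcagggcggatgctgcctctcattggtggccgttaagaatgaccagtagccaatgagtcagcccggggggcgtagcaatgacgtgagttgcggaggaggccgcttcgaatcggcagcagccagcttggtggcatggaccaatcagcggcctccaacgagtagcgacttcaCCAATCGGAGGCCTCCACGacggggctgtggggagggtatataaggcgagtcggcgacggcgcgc

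None of the 6 constitutive HSP70 genes tested passed. Hspa8 (HSC70), the constitutive cytosolic counterpart of Hspa1a, read 13.05 and 12.92 in WT against 12.99 and 12.97 in Id2 KO. Its difference was -0.00, with an interval from -0.19 to 0.18 (adjusted p = 0.987), against -1.15 to -0.68 for Hspa1a; the difference between these differences was not tested. Its other 2 probe sets gave -0.04 each. Hspa9, the HSP70 of mitochondria, read 9.12 and 9.29 in WT against 9.38 and 9.17 in Id2 KO (0.07, adjusted p = 0.758). Hspa4 (0.06), Hspa4l (0.13), Hspa13 (0.06) and the ribosome-associated Hspa14 (0.21) did not pass either, and Hspa12a and Hspa12b lay below the filter.

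Neither partner gene of HSP90 among the members passed the test. Ahsa1, which speeds up the ATPase of HSP90, read 9.71 and 10.09 in WT against 10.41 and 10.16 in Id2 KO. Stip1, which hands clients from HSP70 to HSP90, read 10.24 and 10.29 in WT against 10.67 and 10.33 in Id2 KO. The differences were 0.39 (0.09 to 0.69, adjusted p = 0.13) for Ahsa1 and 0.24 (-0.02 to 0.50, adjusted p = 0.28) for Stip1. Single arrays moved both values in either direction. Ahsa1 was 0.58 and passed without WT replicate 2 (adjusted p = 0.0432) but was 0.20 without WT replicate 1 (0.643). Stip1 was 0.41 and passed without Id2 KO replicate 2 (adjusted p = 0.0294) but was 0.07 without Id2 KO replicate 1 (0.867). Heat can also raise both of these genes, and Hspa8 and Hspa4l. With these 4 counted as heat-inducible, the median of the 13 tested genes of that class was -0.25 in place of -0.44, and that of the remaining 50 constitutive genes was 0.05. Within 0.3 of 0 then lay 6 of the 13 and 49 of the 50.

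The 8 CCT subunit genes encode the different subunits of 1 ring-shaped complex. None passed, and their differences lay between 0.03 (Cct6a) and 0.29 (Tcp1), with a median of 0.09. Tcp1 read 8.95 and 9.04 in WT against 9.42 and 9.15 in Id2 KO (adjusted p = 0.153), and Cct2 read 10.83 and 10.71 in WT against 11.09 and 10.87 in Id2 KO (0.21, adjusted p = 0.267). Cct5 read 10.32 and 10.35 in WT against 10.61 and 10.33 in Id2 KO (0.13, adjusted p = 0.524). All 8 were higher in Id2 KO replicate 1 than in replicate 2, by a median of 0.27, whereas 55.4% of all tested genes were, with a median of 0.02. This was not particular to CCT. Of all 75 tested members, 54 were higher in replicate 1, with a median of 0.10. Among them were all 4 genes of HSP90 and its partners, 9 of the 11 tested HSP70 genes and 23 of the 39 tested J protein genes. For Tcp1, Cct2 and Cct4 both Id2 KO arrays lay above both WT arrays, an order that 27.9% of all tested genes had. For the other 5 the reading of Id2 KO replicate 2 lay below the higher WT reading. Without Id2 KO replicate 1 the median of the 8 was -0.02, and without replicate 2 it was 0.23, with Tcp1 past the test (0.43, adjusted p = 0.0253), whereas Tcp1 was 0.15 without replicate 1 (adjusted p = 0.58). The summed cell cycle genes were likewise higher in replicate 1 (12014) than in replicate 2 (9292), and their part in this order was not tested. Prefoldin delivers actin and tubulin to CCT. None of its 6 genes passed, with differences between 0.01 and 0.22.

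**Figure D4:**
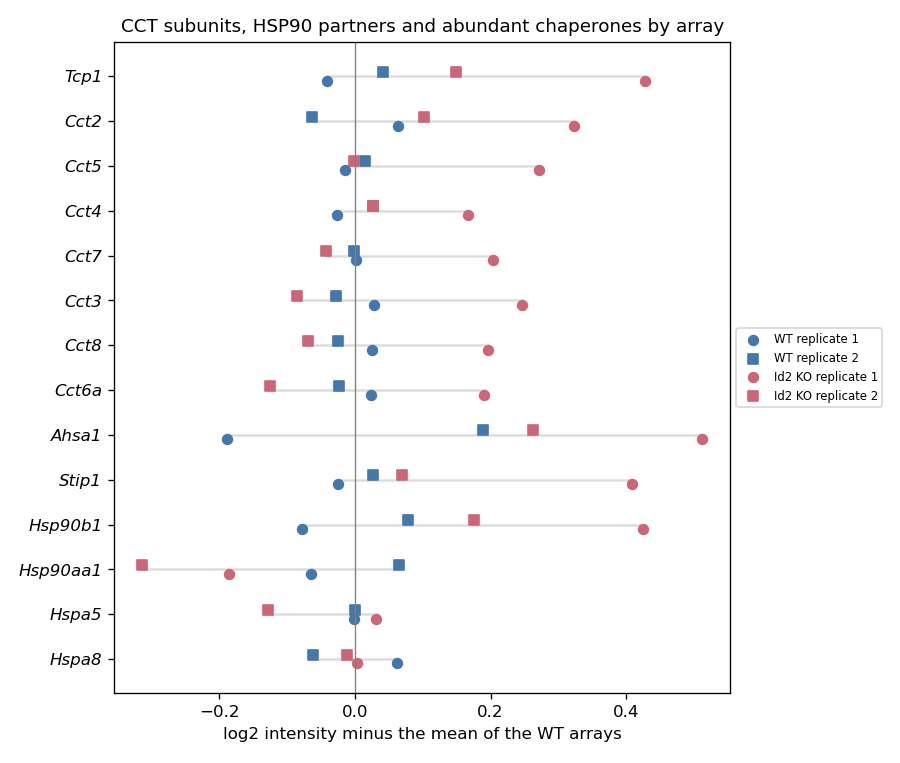
The log2 intensity of the 8 CCT subunit genes, the HSP90 partners Ahsa1 and Stip1, and Hsp90b1, Hsp90aa1, Hspa5 and Hspa8 is shown for each array as the distance from the mean of the WT arrays (circles for replicate 1, squares for replicate 2, blue for WT, red for Id2 KO). Red circles lie to the right of red squares for all 8 CCT genes, by a median of 0.27, and the arrays of Hspa8 lie together.

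Of the 31 constitutive J protein genes, Dnajc9 rose and the other 30 did not pass. Dnajc9, a J protein that also binds histones H3 and H4, read 8.42 and 8.57 in WT against 9.24 and 9.05 in Id2 KO, higher by 0.65 (0.43 to 0.87) or 1.57-fold (adjusted p = 0.00347). The groups did not overlap, and the call held with each array left out and under all other settings tried (adjusted p up to 0.0383). The cell cycle genes were higher in the same arrays. The other 30 lay between -0.21 (Dnajb2, a ubiquitin-binding J protein) and 0.28 (Dnajc13, which acts in endosome sorting). Among those with roles outside folding were the ribosome-associated Dnajc2 (0.18), the splicing factors Dnajc8 (0.11) and Dnajc17 (-0.05), the vesicle protein gene Dnajc5 (0.06) and Dnajc24 of diphthamide synthesis (-0.10). The mitochondrial J proteins Dnaja3 (0.02), Dnajc11 (0.11), Dnajc15 (0.00) and Dnajc19 (0.11) lay close to 0. Dnaja2, the constitutive relative of Dnaja1, read 8.65 and 8.72 in WT against 8.78 and 8.51 in Id2 KO (-0.04, interval -0.27 to 0.19), so its groups overlapped where those of Dnaja1 did not.

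None of the tested exchange factor genes of HSP70 other than Bag3 passed, nor did Hspbap1, which encodes a binding partner of a small heat shock protein. Bag1, which binds both HSP70 and the survival protein BCL2, differed by 0.16, Bag4 by 0.17, Bag5 by 0.09, and Bag6, which guards membrane proteins before their insertion, by 0.12. Hspbp1 differed by 0.05 and Hspbap1 by 0.21, and Bag2 lay below the filter. The 6 genes tested had adjusted p-values from 0.197 to 0.806. Bag3 was the single BAG gene past the test.

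Among the tissue-restricted members, 11 of 16 lay below the filter and 2 of the 5 tested changed, in opposite directions. Hspb6 (HSP20), a small heat shock protein best known from muscle, read 7.72 and 7.77 in WT against 8.42 and 8.48 in Id2 KO. Both groups were tight, and the rise of 0.71 (0.53 to 0.89) or 1.63-fold passed (adjusted p = 7.66e-04) here and under every other setting tried (up to 0.00986). Hspa1l, an HSP70 gene of testis next to Hspa1a, read 7.27 and 7.67 in WT against 6.96 and 7.01 in Id2 KO. Its fall of 0.48 passed narrowly (adjusted p = 0.0499), and it passed in 3 of 9 alternatives. Without WT replicate 2 the fall was 0.28 (adjusted p = 0.227). The call was also lost without a filter (0.0824), after renewed quantile normalization (0.0722), with a replicate block (0.0572) and without Id2 KO replicate 1 (0.123) or 2 (0.0621). Whether its probes also read RNA of Hspa1a was not tested. Hspa2 (-0.08), Hspb9 (-0.07) and Dnajb8 (0.07) did not pass. Of the 11 below the filter, the muscle gene Hspb7 lay farthest from 0, at -0.26.

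Hsf2, a heat shock factor that can pair with Hsf1 on heat shock elements, read 6.81 and 6.62 in WT against 7.24 and 7.06 in Id2 KO. It rose by 0.44 (0.21 to 0.66, adjusted p = 0.0302). Its WT mean of 6.72 lay below the filter level of 6.77, so it was tested through its higher group and the size of its rise is not settled. The call was lost without a filter (adjusted p = 0.0539), without either WT array (0.052 and 0.184) and without Id2 KO replicate 1 (0.122).

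**Figure D5:**
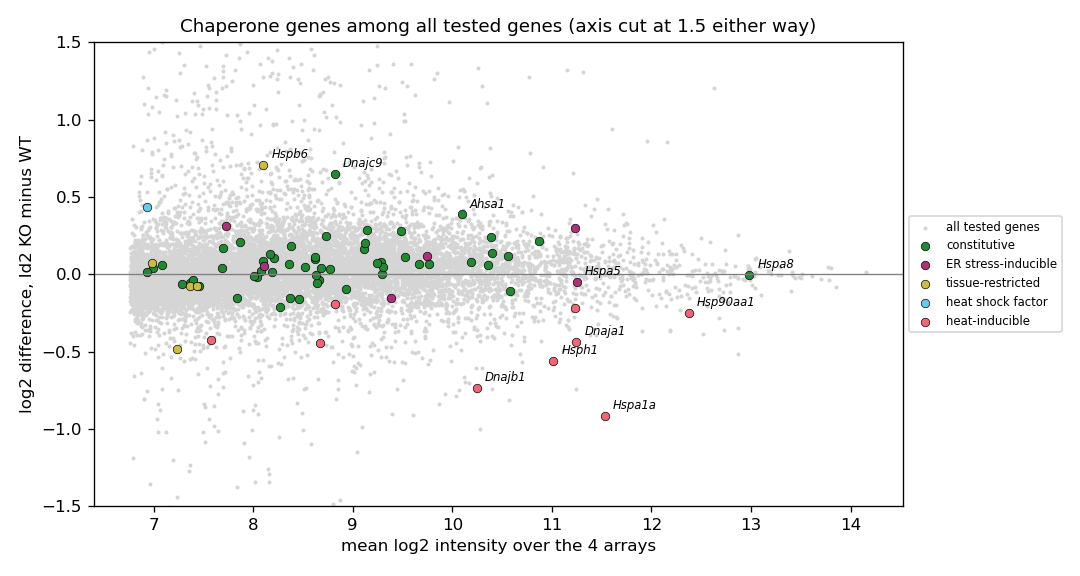
The log2 difference (Id2 KO minus WT) is plotted against the mean log2 intensity over the 4 arrays for the 75 tested member genes, coloured by class, and for all 11963 tested genes in grey, with the vertical axis cut at 1.5 either way. At mean log2 intensities above 11, Hspa1a (-0.92), Hsph1 (-0.56), Dnaja1 (-0.44), Hsp90aa1 (-0.25) and Hspe1 (-0.22) lie below 0. Hspa8 and Hspa5 lie near 0 there, and Hsp90b1 lies at 0.30. Only Hspa1a and Dnaja1 of these passed.

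Other genes of protein folding and stress were read from lists. None of 16 cofactors of HSP70 and HSP90 passed, with differences between -0.14 and 0.16. They include Chordc1 (0.14) and Fkbp4 (0.09), which heat can raise too. Of 15 genes of the unfolded protein response, 1 fell and none rose, whereas 2.52% of all tested genes fell and 5.53% rose. The gene that fell was Ddit3 (CHOP), a transcription factor of the integrated stress response. It read 9.35 and 9.31 in WT against 8.71 and 8.68 in Id2 KO, a difference of -0.63 (adjusted p = 0.00132). Atf4, which activates it, differed by -0.23 (adjusted p = 0.157), Ern1 by -0.23 (adjusted p = 0.179) and Xbp1 by -0.12. Canx differed by 0.30 (adjusted p = 0.096) and Pdia4 by 0.32 (adjusted p = 0.081).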

How the data were processed

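What the authors deposited is a linear intensity for each probe set on each array, from 5.19 to 18624. Per the submitters' processing notes the authors used Affymetrix Expression Console and RMA, named without role or order, and a return from log2 to the linear scale is inferred from the values. Per the labels' protocols, small amounts of RNA were amplified, which can shift some levels. A genome build is not given in the sources used here. The log2 of each deposited intensity was taken without a pseudocount. Of 28853 probe sets, 21789 had 1 gene symbol, and 8 members had several probe sets. The 11963 genes above the 40th percentile entered a two-sided test in limma (version 3.58.1, R version 4.3.3; functions lmFit and eBayes with 2 residual and 6.77 prior degrees of freedom), without a block, with Benjamini-Hochberg adjustment over all of them and a threshold of 0.05. Intervals are unadjusted 95% intervals. Precision is limited by how few arrays there are. The fit was also run on simulated data with independent normal noise, which cannot address sex, cell mixture or technical spread in these arrays.

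Members, classes and lists were chosen with earlier results of these data known. Any member could be named. Full statistics were for members past the threshold, the 3 with the largest difference in each role class and the core chaperones, and other lists gave genes past the threshold and up to 4 more. Fkbp4, Chordc1, Xbp1, Fos and Egr1, and the array values of Dnaja2, were chosen after their values were seen. Alternatives were other filters, scalings and probe set rules, each array left out, and a replicate block.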

Additional observations from a re-analysis of the deposited data

How the results depend on the processing

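Of the 9 changed members, Hspa1a, Dnajb1, Dnajc9 and Hspb6 kept their calls under every alternative that was run, and none of the 9 changed sign. With each array left out in turn, the number of members that fell ranged from 3 to 6 and the number that rose from 2 to 6. The number of heat-inducible genes that fell, a count added after seeing the data, ranged from 2 (without WT replicate 1) to 6. The median difference ranged from -0.034 to 0.10 over all tested members, from -0.48 to -0.37 over heat-inducible genes, from -0.0099 to 0.13 over constitutive genes, from 0.05 to 0.12 over ER stress-inducible genes and from -0.022 to 0.23 over CCT genes. The heat-inducible median was -0.49 after renewed quantile normalization and -0.25 with the wider class. Genes near 0 changed sign without passing: Hspa8 was 0.016 with median-centred arrays and ranged from -0.066 to 0.057 with an array left out, Hspa5 from -0.13 to 0.032 and Hspa9 from -0.034 to 0.18. The cause of these shifts was not tested. With the replicate number as a block, 3 members rose and 5 fell, and Hspa1l lost its call (adjusted p = 0.0572). Nothing shows that the numbers pair the samples: the deviations of same-numbered arrays had a correlation of -0.14 over 11963 genes, and the crossed pairing, added after seeing the data, gave 7 higher and 7 lower. No background readings stand beside dim probe sets, so the 16 members below the filter set no limit on a change.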

Other observations

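Some probe sets of the family carry several gene symbols and therefore stand outside the comparison. Of these, 4 annotated to both Dnajb6, a J protein that holds back protein aggregates, and Gm4247 differed by 0.07 to 0.13 on the log2 scale, close to the 0.07 of Dnajb6's own probe set. Another 2, annotated to Hspa8 and the small nucleolar RNA genes Snord14c and Snord14d of its introns, differed by -0.05 and -0.06. The 2 shared by Dnajb14 and Pin4 differed by -0.03 and -0.02. None of them was tested.

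Dnajc13 was read by 15 probe sets, of which 13 were higher in Id2 KO and 2 were lower, among them the dimmest. The brightest differed by 0.28 and did not pass (adjusted p = 0.149).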
